A study of Homo sapiens with 12 samples.

Results

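The integrated stress response genes described here are 10 regulators and effectors, ATF4, ATF5, ATF3, CEBPB, DDIT3, TRIB3, PPP1R15A, SESN2, DDIT4 and CHAC1. They were taken by symbol from the 28008 genes of the MUC1-C silencing table and the 25435 genes of the MUC1-C overexpression table, and all 10 were listed in both and passed the filter on low counts in both. They were chosen by their part in this response and on their values in both comparisons, so their differences are given as a description with no test. In the silencing experiment, LNCaP-ER/tet-MUC1shRNA cells, an enzalutamide-resistant derivative of the androgen receptor-positive prostate cancer line LNCaP that carries a doxycycline (DOX)-inducible MUC1 shRNA, received DOX at 500 ng/mL, or 0.1% DMSO as vehicle, over 7 days. None of the libraries used came from cells with a control shRNA that received DOX. Effects of DOX itself and of the MUC1 shRNA therefore cannot be told apart here. The overexpression experiment set LNCaP cells against LNCaP/MUC1-C OE cells, which express the MUC1-C subunit from a CMV promoter. RNA-Seq was performed on 3 libraries per group from cells cultured in triplicate, so the spread and the p-values below measure the variation between these cultures. The controls of this experiment are called vector in the table's header but wild-type in the labels, and the labels of the overexpressing cells carry the prefixes sh and tet.

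The integrated stress response is set off by the kinases PERK, GCN2, PKR and HRI, which phosphorylate the translation initiation factor eIF2 when unfolded protein, amino acid shortage, double-stranded RNA or heme shortage and mitochondrial stress arise. Phosphorylated eIF2 slows translation in general while favoring the translation of ATF4, whose protein forms dimers with other bZIP factors and switches on genes for amino acid supply, redox balance and, under lasting stress, cell death. PPP1R15A and TRIB3 act as brakes on this response. Since ATF4 is controlled largely at translation, its mRNA level is not a measure of its protein.

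Promoter sequences are shown for the members in which a searched motif was found, to place the transcript values beside the DNA upstream of each gene. The windows are RefSeq promoters on GRCh38.p14, from 250 bases before to 50 bases after the start, and all 10 members were matched with 18 windows. Capitals mark the core of the C/EBP-ATF response element (CARE; TGATGNAA on either strand) in CHAC1 and ATF3, the cAMP response element (CRE; TGACGTCA) in PPP1R15A, and the E-box (CACGTG) in ATF4, and the 250 upstream bases are printed 5′ to 3′ on the plus strand, which is the strand of all 4 genes.
CHAC1, chr15:40953221-40953470: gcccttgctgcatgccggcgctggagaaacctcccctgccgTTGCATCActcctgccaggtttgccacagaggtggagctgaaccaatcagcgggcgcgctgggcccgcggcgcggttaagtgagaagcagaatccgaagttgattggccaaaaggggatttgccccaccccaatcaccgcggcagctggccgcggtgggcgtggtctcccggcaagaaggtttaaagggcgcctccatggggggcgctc
ATF3, chr1:212565157-212565406: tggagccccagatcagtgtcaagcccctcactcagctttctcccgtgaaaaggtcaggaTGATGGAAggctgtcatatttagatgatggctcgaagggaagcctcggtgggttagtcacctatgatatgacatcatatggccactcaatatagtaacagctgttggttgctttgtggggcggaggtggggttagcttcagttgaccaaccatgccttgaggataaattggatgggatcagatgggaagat
PPP1R15A, chr19:48872171-48872420: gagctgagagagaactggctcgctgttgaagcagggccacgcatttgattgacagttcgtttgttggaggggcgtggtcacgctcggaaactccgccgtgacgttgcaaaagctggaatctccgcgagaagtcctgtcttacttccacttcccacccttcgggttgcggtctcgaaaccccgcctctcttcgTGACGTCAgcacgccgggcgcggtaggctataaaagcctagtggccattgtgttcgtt
ATF4, chr22:39520309-39520558: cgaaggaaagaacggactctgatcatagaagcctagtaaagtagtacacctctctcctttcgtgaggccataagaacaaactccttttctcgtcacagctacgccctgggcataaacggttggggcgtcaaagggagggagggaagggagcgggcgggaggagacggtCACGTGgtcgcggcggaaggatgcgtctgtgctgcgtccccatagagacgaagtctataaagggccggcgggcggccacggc
The CARE core began 209 bases before the start of CHAC1, where it lies on the minus strand, and 191 bases before the start of the printed ATF3 window. Another ATF3 window, beginning at chr1:212614768, held no CARE core. Which start these cells used was not tested. It was found in 2 of 10 members and in 4.46% of the 27305 genes with a window. Among the 36 other ATF4 targets that were matched, 14 held it (38.9%). The CRE of PPP1R15A began 58 bases before the start and was found in 2.25% of all genes, and the E-box of ATF4 began 82 bases before the start and was found in 8.77% of all genes. No member held the endoplasmic reticulum stress element (CCAAT, 9 bases of any kind, CCACG), which was found in 0.0916% of all genes. These matches describe letters in a window and do not show that a factor binds there.

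Total counts ranged from 28045894 to 45807989 in the silencing experiment and from 13806856 to 19208944 in the overexpression experiment. MUC1, the gene targeted by the shRNA, had 26, 10 and 13 counts with vehicle, in the order of the replicate numbers, and 3, 42 and 8 counts in the libraries labelled DOX. Replicate 2 labelled DOX had more MUC1 reads than every vehicle library, and the groups of this experiment are named by their labels throughout. MUC1 was thus sparsely counted in both, with a log2 fold change of 0.12 (SE 0.93). In the overexpression experiment, MUC1 was counted 30, 25 and 31 times in LNCaP cells and 9168, 9959 and 12622 times in LNCaP/MUC1-C OE cells. The summed level of 10 prostate luminal markers was 375 to 391 CPM (counts scaled to a common library total) in the LNCaP libraries and 89.2 to 100.2 CPM in the overexpressing libraries, in which KLK3, KLK2 and FOLH1 had 0 counts in every library, while it was 4823 to 4932 CPM with vehicle and 5639 to 6090 CPM in the libraries labelled DOX. A list of 12 markers of other cell types summed to 58.2 to 65.5 CPM in LNCaP/MUC1-C OE and 77.1 to 83.0 CPM in LNCaP cells. It summed to 18.5 to 25.9 CPM with vehicle and 33.4 to 46.3 CPM in the libraries labelled DOX, where replicate 2 had none of the 12 at 0 and replicates 1 and 3 had 3 and 2. Of this sum, CD68 was at 5.0 to 7.5 CPM with vehicle and 21.7 to 22.9 CPM with DOX. COL1A1 was at 8.8 to 13.3 and 6.5 to 10.7 CPM, and VWF at 2.7 to 4.4 and 2.1 to 5.6 CPM. The loss of luminal markers moved with MUC1-C overexpression, and its part in the values below was not tested. In such bulk libraries, fewer cells that express a gene and less RNA per cell cannot be told apart.

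With DOX, 9 of the 10 members were lower than with vehicle and 1, PPP1R15A, was higher, with a median log2 fold change of −0.91 against −0.02 over all 14683 genes tested. With MUC1-C overexpression, 8 members were higher and 2, ATF5 and TRIB3, were lower, with a median of 1.01 against −0.01 over all 13836 genes tested. The signs of 7 members were opposite in the 2 experiments (ATF4, ATF3, CEBPB, DDIT3, SESN2, DDIT4 and CHAC1), all of them lower with DOX and higher with overexpression. Among them, DDIT3 was at 0.18 with overexpression, below its SE of 0.19. The share of opposite signs over all 11682 genes tested in both experiments is not given here, so nothing is read from this count. ATF5 and TRIB3 were lower in both experiments and PPP1R15A was higher in both, but the overexpression value of TRIB3, −0.05, turned to 0.03 and 0.05 without LNCaP/MUC1-C OE replicate 2 and replicate 3, so its place in this tally rests on single libraries. These directions in the silencing experiment held on every count-based scaling, whereas on the deposited TPM (counts divided by transcript length and scaled to a common total) ATF5, ATF3 and SESN2 turned positive, leaving 6 lower and 4 higher.

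**Figure D1:**
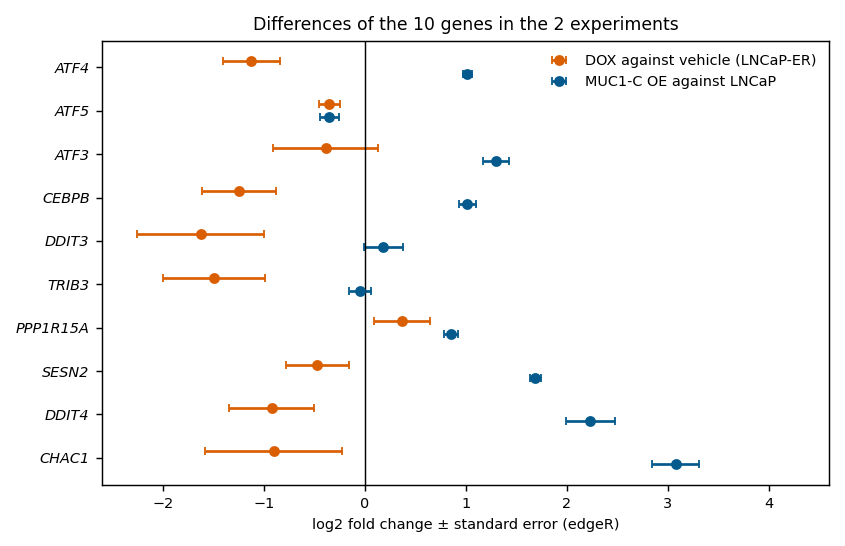
The log2 fold change of each gene (x axis) with its standard error from edgeR (bars) is shown for DOX against vehicle (orange) and for MUC1-C OE against LNCaP (blue), each from 3 libraries per group. The orange points of 9 genes lie to the left of 0 and those of PPP1R15A to the right, whereas the blue points of 8 genes lie to the right. On deposited TPM, the orange points of ATF5, ATF3 and SESN2 would lie to the right of 0.

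At an adjusted p under 0.05 in edgeR's quasi-likelihood test, 3 members were called lower with DOX (ATF4, ATF5 and CEBPB) and 0 higher, where 14.5% of all genes were called lower and 12.8% higher. The vehicle and DOX libraries did not overlap for 2 members, ATF4 and ATF5, both lower, beside 23.0% of all genes lower and 21.2% higher without overlap. With overexpression, 7 members were called higher and 1, ATF5, lower, where 33.2% of all genes were called higher and 34.1% lower, and the same numbers of members had no overlap between groups, beside 34.4% of all genes higher and 35.9% lower. Because the members were chosen on these contrasts, nothing is read from those counts. The same holds for every count of members called below, with a library left out or another setting used. Over all genes, 1875 rose and 2131 fell with DOX, a split that became 2430 and 1647 when counts were scaled by library size alone, and 4600 rose and 4712 fell with overexpression, a split that became 3050 and 6388 on that scaling.

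The silencing libraries did not vary evenly. Vehicle replicate 1 was the lowest of its group for 9 of 10 members, beside 40.2% of all genes, and replicate 2 labelled DOX was the highest of its group for 8 of 10, beside 42.1%. Replicate 1 labelled DOX was also the lowest of its group for 9 of 10 members, beside 30.9% of all genes. The counts of vehicle replicates 2 and 3 differed from each other by a chi-square of 5.51 per degree of freedom, while each differed from replicate 1 by 48.4 or more, and the pairs of libraries labelled DOX differed by 24.97 to 61.7. In the overexpression experiment the same measure was between 2.20 and 7.25. Replicate 2 labelled DOX also listed 11.2% of genes at 0, against 27.95% to 38.1% in the other silencing libraries. The part of these differences in the values below was not tested. The median log2 fold change of the members was −1.24 without vehicle replicate 1 and −1.50 without replicate 2 labelled DOX, and it was smaller, at −0.70, −0.76, −0.57 and −0.69, without vehicle replicate 2, vehicle replicate 3, replicate 1 labelled DOX and replicate 3 labelled DOX. Members called lower numbered 4 without vehicle replicate 1, beside 2014 of all 15081 genes tested, and 6 without replicate 2 labelled DOX, beside 2564 of 14848. None was called lower without vehicle replicate 2 (1258 of 15310 genes), vehicle replicate 3 (1163 of 15290) or replicate 1 labelled DOX (1630 of 15101), and 1 was without replicate 3 labelled DOX (1170 of 15064).

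**Figure D2:**
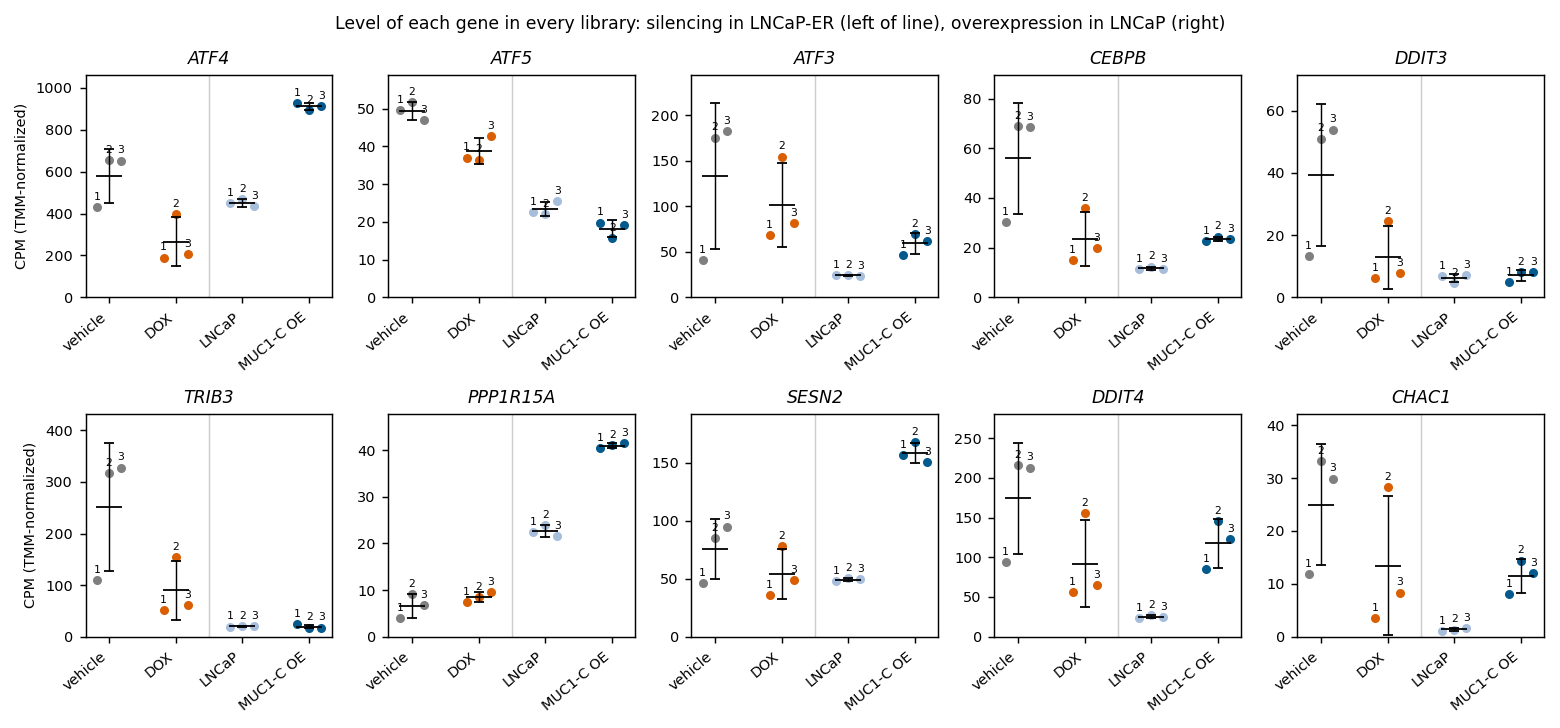
Each panel shows 1 gene in all 12 libraries, as CPM normalized by TMM on the y axis, with the replicate number above each point and the mean ± SD as bars. Vehicle replicate 1 lies below replicates 2 and 3 in most panels and DOX replicate 2 above replicates 1 and 3, while the LNCaP libraries lie close together and the MUC1-C OE libraries spread most for CHAC1, DDIT4 and DDIT3. Levels are not compared across the grey line, since the tables were counted separately.

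ATF4, the central transcription factor of the response, was the member with the highest level per transcript length in the silencing libraries. In CPM normalized by edgeR's TMM method, its levels were 432, 654 and 653 with vehicle (replicates 1, 2 and 3, as in all values below) and stood at 189.9, 399 and 207 with DOX. The highest DOX library thus stayed below the lowest vehicle library, with replicate 2 labelled DOX closest to it. The means of 580 ± 128 and 265 ± 116 (SD, n = 3) differed by 2.18-fold, a log2 fold change of −1.13 (SE 0.28). With overexpression, ATF4 was at 449, 471 and 435 CPM in LNCaP cells and at 926, 893 and 915 CPM in LNCaP/MUC1-C OE cells, 2.02-fold higher with no overlap and a log2 fold change of 1.01 (SE 0.04). Processed pseudogenes of ATF4 are annotated in RefSeq, and how the authors' counting treated reads shared with them is not given in the sources used here.

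ATF5, a bZIP factor close to ATF4 that is linked to the mitochondrial branch of the response, was lower in both experiments. Its levels were 49.6, 51.8 and 47.0 CPM with vehicle and 37.0, 36.5 and 42.7 CPM in the libraries labelled DOX. It was the steadiest member of this experiment, with the highest library of a group 1.102-fold above the lowest with vehicle and 1.17-fold with DOX, and the groups did not overlap (log2 fold change −0.35, SE 0.10). In LNCaP cells it was at 22.7, 22.0 and 25.5 CPM, and in LNCaP/MUC1-C OE cells at 19.8, 15.7 and 19.2 CPM. All 3 overexpressing libraries lay below all 3 LNCaP libraries, again with a log2 fold change of −0.35 (SE 0.09), opposite in direction to ATF4.

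ATF3, a bZIP factor that ATF4 switches on, showed overlapping groups with DOX. It was at 40.6, 175 and 183 CPM with vehicle and at 68.3, 154 and 81.6 CPM in the libraries labelled DOX. Vehicle replicate 1 lay below every DOX library while the other vehicle replicates lay above every one, a 4.49-fold range within the vehicle group, and the log2 fold change was −0.39 (SE 0.52). It lay between −0.10, without vehicle replicate 3, and −0.83, without vehicle replicate 1. With overexpression, ATF3 was at 24.1, 24.3 and 23.7 CPM in LNCaP cells and at 46.4, 69.5 and 61.5 CPM in LNCaP/MUC1-C OE cells. The groups were apart, 2.46-fold on the means, with the smallest increase in replicate 1 of the overexpressing cells (log2 fold change 1.30, SE 0.13).

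CEBPB, a C/EBP factor that can pair with ATF4, was at 30.2, 69.1 and 68.4 CPM with vehicle and at 15.1, 35.8 and 20.0 CPM in the libraries labelled DOX. Replicate 2 labelled DOX was above vehicle replicate 1, so that the groups overlapped by these libraries alone, although the log2 fold change was −1.24 (SE 0.37). In LNCaP cells CEBPB was at 11.2, 12.4 and 11.2 CPM, and in LNCaP/MUC1-C OE cells at 22.7, 24.5 and 23.3 CPM. The LNCaP/MUC1-C OE libraries were 2.02-fold higher on the means with little spread in either group (log2 fold change 1.01, SE 0.09).

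DDIT3, which encodes CHOP, the factor tied to cell death under lasting stress, had the largest difference of the 10 with DOX and almost none with overexpression. Its levels were 13.1, 51.1 and 53.9 CPM with vehicle and 6.2, 24.6 and 7.7 CPM in the libraries labelled DOX. As for CEBPB, replicate 2 labelled DOX exceeded vehicle replicate 1, and the log2 fold change of −1.63 had an SE of 0.63 and was −2.46 without that library. With overexpression, DDIT3 was at 6.9, 4.7 and 7.1 CPM in LNCaP cells and at 5.0, 8.0 and 8.2 CPM in LNCaP/MUC1-C OE cells. These groups overlapped, with a log2 fold change of 0.18 (SE 0.19), whereas ATF4, ATF3 and CEBPB did not overlap in the same libraries.

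TRIB3, the pseudokinase that binds ATF4 and CHOP and restrains them, had one of the larger differences with DOX and the smallest with overexpression. It was at 109, 318 and 328 CPM with vehicle and at 52.2, 155 and 61.7 CPM in the libraries labelled DOX. The means differed by 2.81-fold, but replicate 2 labelled DOX lay above vehicle replicate 1 (log2 fold change −1.49, SE 0.50). In LNCaP cells TRIB3 was at 19.5, 21.1 and 20.3 CPM, and in LNCaP/MUC1-C OE cells at 23.9, 17.6 and 17.3 CPM. One overexpressing library was above the LNCaP range and the other two below it, and the log2 fold change of −0.05 had an SE of 0.11.

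PPP1R15A, or GADD34, the stress-induced subunit that guides a phosphatase to eIF2 and so reverses its phosphorylation, was the only member with a higher mean CPM in the libraries labelled DOX. It was at 4.0, 9.0 and 6.8 CPM with vehicle and at 7.5, 8.5 and 9.6 CPM in the libraries labelled DOX. These groups overlapped, and the difference of 0.37 on the log2 scale was close to its SE of 0.28. Without vehicle replicate 1, the lowest library, it was 0.09, and without vehicle replicate 2, the highest of its group, 0.65. With overexpression, PPP1R15A was at 22.4, 24.0 and 21.6 CPM in LNCaP cells and at 40.4, 41.1 and 41.5 CPM in LNCaP/MUC1-C OE cells, 1.81-fold higher with no overlap (log2 fold change 0.86, SE 0.07).

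SESN2, a stress-induced sestrin that senses leucine and holds back mTORC1, was at 46.3, 85.2 and 94.9 CPM with vehicle and at 36.0, 78.2 and 49.1 CPM in the libraries labelled DOX. The groups overlapped and the log2 fold change was −0.47 (SE 0.31), moving to −0.25 without replicate 1 labelled DOX and to −0.79 without replicate 2. In LNCaP cells SESN2 was at 47.9, 50.2 and 49.7 CPM, and in LNCaP/MUC1-C OE cells at 157, 168 and 151 CPM. Every overexpressing library was thus well above every LNCaP library, 3.22-fold on the means (log2 fold change 1.68, SE 0.05).

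DDIT4, or REDD1, another inhibitor of mTORC1 signaling, was at 93.9, 216 and 213 CPM with vehicle and at 56.1, 155 and 64.7 CPM in the libraries labelled DOX. Replicate 2 labelled DOX lay above vehicle replicate 1, and the log2 fold change was −0.92 (SE 0.42), with values from −0.68, without replicate 1 labelled DOX, to −1.50, without replicate 2. With overexpression, DDIT4 was at 23.7, 27.0 and 24.4 CPM in LNCaP cells and at 84.8, 145 and 123 CPM in LNCaP/MUC1-C OE cells. The groups were far apart, 4.71-fold on the means, and replicate 1 was again the lowest of the overexpressing libraries (log2 fold change 2.23, SE 0.24).

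CHAC1, the glutathione-degrading enzyme downstream of ATF4 whose promoter holds the CARE core printed above, had the largest difference of the 10 with overexpression. It was counted 22, 25 and 32 times in LNCaP cells and 119, 188 and 202 times in LNCaP/MUC1-C OE cells, or at 1.1, 1.3 and 1.7 CPM and 8.0, 14.4 and 12.1 CPM. The groups did not overlap, the means differed by 8.49-fold, and the log2 fold change was 3.08 (SE 0.23). With DOX, CHAC1 was at 11.8, 33.3 and 29.9 CPM with vehicle and at 3.5, 28.4 and 8.3 CPM in the libraries labelled DOX. Replicate 2 labelled DOX reached the level of vehicle replicates 2 and 3, a 7.99-fold range within 1 group, and the log2 fold change was −0.90 (SE 0.68). It was −2.02 without that library, −0.46 without replicate 1 labelled DOX and −0.65 without vehicle replicate 2.

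**Figure D3:**
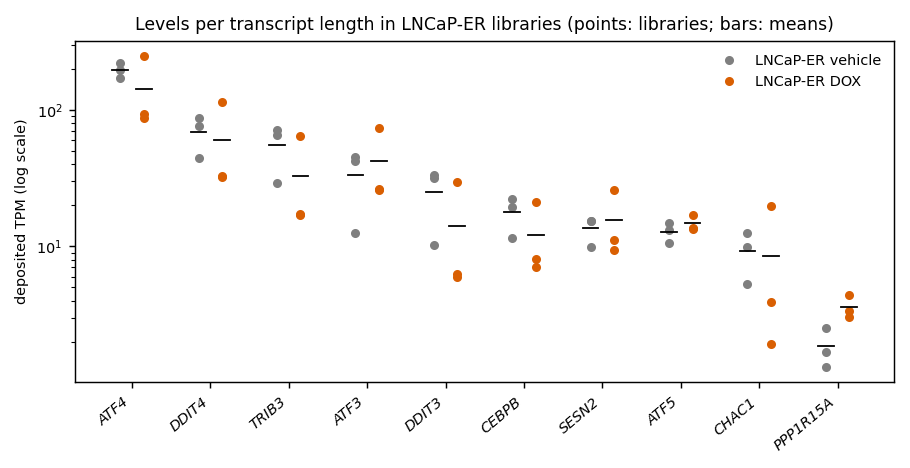
The deposited TPM of each gene is shown on a log scale for the 3 vehicle (grey) and 3 DOX (orange) libraries, with black bars at the group means and genes ordered by the vehicle mean. ATF4 is highest, at 172 to 221 TPM with vehicle, and PPP1R15A lowest, at 1.31 to 2.53 TPM.

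Levels of different genes were compared in TPM, which divides by transcript length and was given for the silencing experiment. With vehicle, the mean levels in TPM were 196 ± 24.2 for ATF4, 69.1 ± 21.9 for DDIT4, 55.5 ± 23.1 for TRIB3, 33.4 ± 18.2 for ATF3, 25.1 ± 12.9 for DDIT3 and 17.8 ± 5.6 for CEBPB (SD, n = 3). SESN2, ATF5, CHAC1 and PPP1R15A followed at 13.5 ± 3.1, 12.8 ± 2.2, 9.24 ± 3.7 and 1.85 ± 0.63 TPM. The vehicle libraries of ATF4 lay above those of DDIT4 and those of CHAC1 above those of PPP1R15A, while every other pair of neighbors in this order overlapped. In the libraries labelled DOX, ATF4 was again the highest at 143 ± 91.1 TPM and PPP1R15A the lowest at 3.58 ± 0.69 TPM. The 4 small RNA genes RN7SK, RN7SL1, RN7SL2 and RPPH1 held 52.5% to 75.2% of all TPM and only 1.47% to 4.34% of counts, and on this scale the median of all genes was shifted by 0.45 on the log2 scale with DOX. When the TPM were rescaled without these 4 genes, 9 members were lower and 1 was higher with DOX, as on counts.

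Relative to the LNCaP libraries, several members stood at other levels in vehicle-treated LNCaP-ER cells when both were divided by the library total. These tables were counted separately and were not tested against each other. TRIB3 was at 110 to 313 CPM in LNCaP-ER and 20.6 to 22.1 CPM in LNCaP cells, and CHAC1 at 11.97 to 31.9 CPM and 1.1 to 1.8 CPM. DDIT3 was at 13.3 to 51.5 CPM and 4.9 to 7.4 CPM. ATF4 lay in similar ranges, 437 to 626 CPM and 459 to 495 CPM, whereas PPP1R15A was at 4.0 to 8.7 CPM in LNCaP-ER and 22.7 to 25.2 CPM in LNCaP cells.

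The other genes switched on by ATF4 form a list of 46 genes of amino acid synthesis, transport, tRNA charging and stress outcome that holds no member. With DOX, 26 of the 46 fell, 2 rose and 18 did not pass edgeR's quasi-likelihood test, with a median log2 fold change of −0.77. Of all 14683 genes tested, 14.5% were called lower and 12.8% higher. On the deposited TPM the median was −0.21, with 9 called lower and 2 higher of 44 tested. The median of all genes was 0.45 on that scale, with 256 called lower and 4991 higher. On TPM rescaled without the 4 small RNA genes, the median of the list was −0.68, with 21 called lower and 2 higher. Of all 13047 genes tested there, 1324 were called lower and 2053 higher. WARS1, the tryptophanyl-tRNA synthetase, was at 181, 217 and 216 CPM with vehicle and at 67.1, 69.5 and 69.6 CPM in the libraries labelled DOX. It was low in every DOX library, replicate 2 included, and fell by 1.57 on the log2 scale (SE 0.10, adjusted p = 1.14e-04). JDP2, a bZIP partner of the AP-1 factors, fell by 2.13 (SE 0.35, adjusted p = 0.00348), and SLC7A11, the cystine carrier that feeds glutathione synthesis, fell by 1.95 (SE 0.37, adjusted p = 0.00613). TNFRSF10B, a death receptor that CHOP can switch on, rose by 0.42 (SE 0.12, adjusted p = 0.0275), and ERO1A, an oxidase of protein folding, rose by 0.37 (SE 0.11, adjusted p = 0.0381). The number that fell was 36 without replicate 2 labelled DOX and 33 without vehicle replicate 1, beside 2564 of 14848 and 2014 of 15081 genes. The number called in either direction was 13 without vehicle replicate 2 (2200 of 15310 genes) and 12 without vehicle replicate 3 (2002 of 15290). It was 16 without replicate 1 labelled DOX (2909 of 15101) and 10 without replicate 3 labelled DOX (2067 of 15064).

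With overexpression, 36 of 45 tested genes of this list rose, 3 fell and 6 did not pass, with a median log2 fold change of 0.89. Of all 13836 genes tested, 33.2% were called higher and 34.1% lower. The amino acid carrier SLC38A2 was at 219, 206 and 214 CPM in LNCaP cells and at 395, 453 and 389 CPM in LNCaP/MUC1-C OE cells. It rose by 0.95 on the log2 scale (SE 0.06, adjusted p = 1.14e-10), as ERO1A did by 0.80 (SE 0.05, adjusted p = 1.70e-10) and CEBPG, a C/EBP partner of ATF4, by 1.45 (SE 0.08, adjusted p = 3.67e-10). JDP2 rose by 2.55 (adjusted p = 1.21e-06), SLC7A11 by 3.99 (adjusted p = 0.00551) and WARS1 by 0.57 (adjusted p = 0.0231), so that these 3 genes passed the test in opposite directions in the 2 experiments. They were named because they ranked first by p among the targets called lower with DOX. Genes called in opposite directions were not counted over the list or over all genes. The 3 that fell were TNFRSF10B, by 1.60 (adjusted p = 5.96e-14), the stress cytokine GDF15, by 3.96 (adjusted p = 3.94e-10), and BBC3, the death effector PUMA, by 1.33 (adjusted p = 6.26e-08). Vehicle replicate 1 was the lowest of its group for 45 of the 46 targets and replicate 1 labelled DOX for 36. Replicate 2 labelled DOX was the highest of its group for 42, and these libraries stood the same way for most members.

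**Figure D4:**
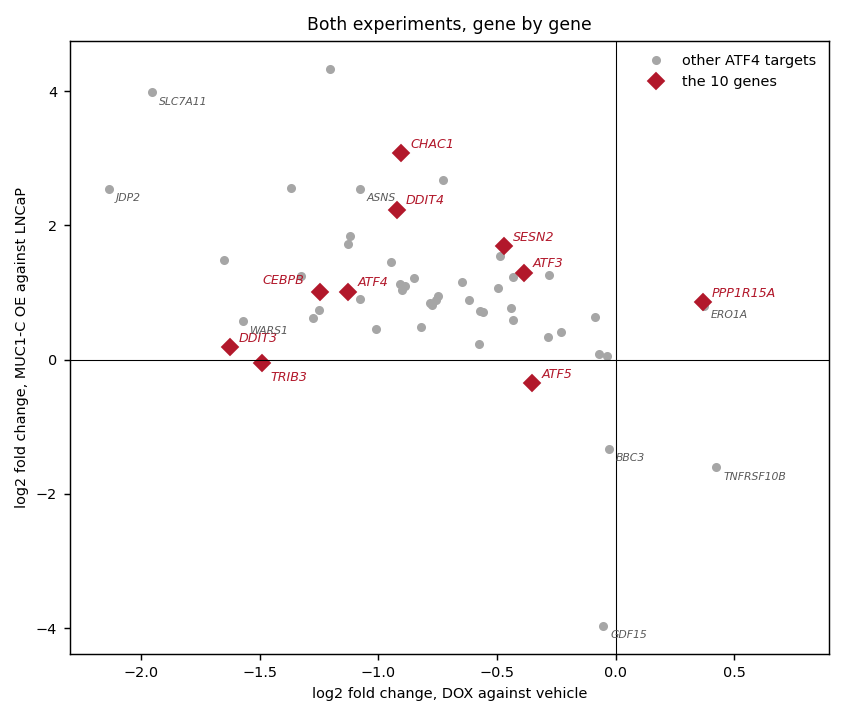
Each point is 1 gene, with its log2 fold change for DOX against vehicle on the x axis and for MUC1-C OE against LNCaP on the y axis, for the 10 members (red diamonds) and the other ATF4 targets tested in both experiments (grey circles). Most points lie in the upper left quadrant, lower with DOX and higher with overexpression, with TRIB3 and DDIT3 near 0 on the y axis and ATF5 below it. PPP1R15A and ERO1A lie on the upper right. On deposited TPM, ATF5, ATF3 and SESN2 would lie to the right of 0 on the x axis.

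Within the overexpressing cells, replicate 1 stood highest for most other targets but not for most members. Replicate 1 was the highest of its group for 37 of 45 other ATF4 targets (82.2%, beside 37.1% of all genes tested). Of the 10 members, it was the highest for 3 and the lowest for 6, beside 36.2% of all genes at the lowest. Among these 6, PPP1R15A and CEBPB differed little between replicates 1, 2 and 3. They were at 40.4, 41.1 and 41.5 CPM and at 22.7, 24.5 and 23.3 CPM. ASNS, the asparagine synthetase, a gene chosen after its values were seen, was at 727, 286 and 237 CPM in replicates 1, 2 and 3 of LNCaP/MUC1-C OE cells and at 76.1, 68.5 and 68.9 CPM in LNCaP cells. SLC7A11 was at 312, 119 and 103 CPM in the overexpressing libraries and between 10.5 and 11.97 CPM in LNCaP cells. In the same 3 libraries CHAC1, DDIT4, ATF3 and DDIT3 were lowest in replicate 1, TRIB3 was highest there, and ATF4 itself differed by 1.04-fold between the highest and lowest library. Without replicate 1 of the overexpressing cells, 8 members had higher values and 2, ATF5 and TRIB3, lower values, as with all libraries. TRIB3 was then at −0.22, against the positive values without replicate 2 or replicate 3 given above.

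**Figure D5:**
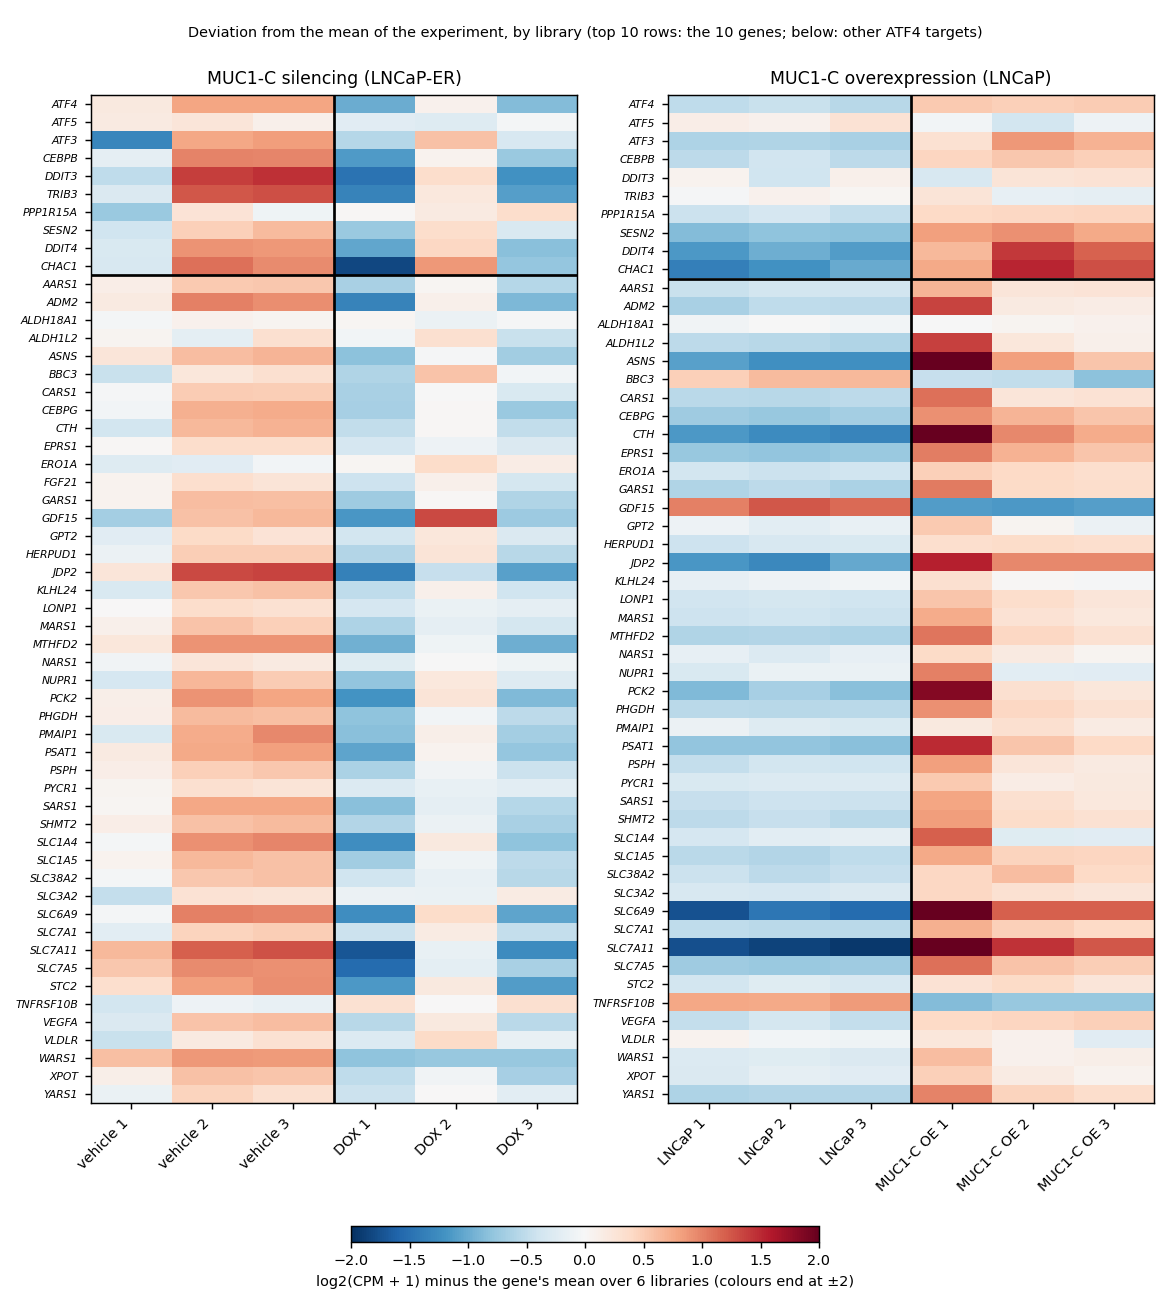
Colors give the log2(CPM + 1) of a gene in a library minus its mean over the 6 libraries of the experiment, from below (blue) to above (red), with the 10 members in the top rows and the other ATF4 targets below. In the silencing experiment the columns of vehicle replicates 2 and 3 are mostly red and those of DOX replicates 1 and 3 mostly blue, with vehicle replicate 1 and DOX replicate 2 between them for most genes. In the overexpression experiment the 3 MUC1-C OE columns are red for most genes, and replicate 1 is the darkest for most other targets but not for CHAC1 and DDIT4.

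Upstream of ATF4, a list of 17 genes covered the eIF2 kinases, eIF2, its exchange factor eIF2B and their regulators. With DOX, 1 of these genes rose, 2 fell and 14 did not pass the test. Of all genes, 12.8% were called higher and 14.5% lower. EIF2AK3, which encodes the kinase PERK, rose by 0.38 on the log2 scale (adjusted p = 0.0288), and the eIF2 subunits EIF2S2 and EIF2S3 fell by 0.49 (adjusted p = 0.0109) and 0.58 (adjusted p = 0.00434). On deposited TPM the sign of EIF2S2 turned to 0.0762. With overexpression, 7 rose and 6 fell, beside 33.2% of all genes called higher and 34.1% lower. EIF2AK3 fell by 0.22 (adjusted p = 0.0116) and EIF2S2 and EIF2S3 rose by 0.57 (adjusted p = 3.36e-06) and 0.26 (adjusted p = 2.65e-04), each opposite to its direction with DOX. The largest increase of this list was that of PPP1R15B, the constitutive counterpart of PPP1R15A, by 1.15 (adjusted p = 5.84e-12), which with DOX differed by −0.13 (adjusted p = 0.401). IMPACT, an inhibitor of GCN2 activation, rose by 0.72 (adjusted p = 6.45e-08). Of the mitochondrial relay to the kinase HRI, the protease OMA1 rose by 0.54 (adjusted p = 9.40e-07) and its substrate DELE1 fell by 0.69 (adjusted p = 3.84e-08).

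Paralogs and dimer partners of the members mostly had lower values with DOX and moved in both directions with overexpression. With DOX, 16 of 18 tested had a lower value. Of the 18, 6 fell at the threshold and 0 rose, beside 14.5% of all genes called lower and 12.8% higher. The smallest adjusted p was that of SESN3, a paralog of SESN2, which fell by 1.45 on the log2 scale (adjusted p = 4.20e-04). SESN3 was at 997, 792 and 877 CPM with vehicle and at 300.4, 374 and 304 CPM in the libraries labelled DOX. Unlike SESN2, its groups were far apart in every library. ATF2 fell by 0.74 (adjusted p = 0.00385), XBP1 by 0.67 (adjusted p = 0.00603) and NFE2L2, the antioxidant regulator NRF2, by 0.58 (adjusted p = 0.00501), beside JDP2 above and CEBPG, which fell by 0.94 (adjusted p = 0.0250). With overexpression, 10 of 19 tested rose and 6 fell, beside 33.2% of all genes called higher and 34.1% lower. SESN3 fell by 0.36 (adjusted p = 1.16e-05) and SESN1 by 0.53 (adjusted p = 3.83e-06) where SESN2 was 3.22-fold higher. Of the AP-1 subunits, JUN rose by 1.07 (adjusted p = 3.19e-11) and FOS fell by 2.89 (adjusted p = 2.29e-08).

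Targets of ATF6 and XBP1, which serve the other branches of the unfolded protein response in the endoplasmic reticulum, were listed as a comparison. With DOX, 2 of 15 fell and 0 rose, beside 14.5% of all genes called lower and 12.8% higher. Those that fell were SEL1L, by 0.56 (adjusted p = 0.0116), and PDIA4, by 0.33 (adjusted p = 0.0257), and the median log2 fold change of the list was −0.03. On deposited TPM both turned positive, to 0.00394 for SEL1L and 0.23 for PDIA4. With overexpression, 6 of 15 rose and 3 fell, with a median of 0.10, beside 33.2% of all genes called higher and 34.1% lower. The chaperone CALR rose by 0.57 (adjusted p = 3.58e-06), CRELD2 by 0.47 (adjusted p = 1.48e-05) and EDEM1 by 0.34 (adjusted p = 3.40e-05), whereas SYVN1 fell by 0.48 (adjusted p = 2.52e-05), DNAJB11 by 0.21 (adjusted p = 0.00296) and PDIA6 by 0.14 (adjusted p = 0.0226). These medians stood beside −0.77 and 0.89 for the other ATF4 targets, and no test of the difference between lists was made.

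The genes whose profile over the 6 silencing libraries was most like the mean standardized profile of the 10 members were RNF114 (Pearson r = 0.997), RPLP0 (0.995), PRUNE2 (0.994), TRAPPC2 (0.993) and FUT1 (0.992), among 10735 genes with a mean of at least 5 CPM. Over the 6 overexpression libraries they were RPS19, MRPL54, PDE4DIP, HAS2 and ANKRD27, each with r above 0.999, among 11078 genes. The points are 6 libraries in 2 groups, so that these values only describe which genes varied with that mean profile. Not every member followed it. In the silencing libraries r was 0.21 for PPP1R15A and 0.52 for ATF5, and 0.83 to 0.99 for the other members. In the overexpression libraries it was −0.80 for ATF5, −0.23 for TRIB3 and 0.33 for DDIT3, and 0.96 to 0.99 for the other members.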

How the data were processed

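RNA-Seq counts of 12 libraries were analyzed. The authors prepared TruSeq Stranded mRNA libraries and deposited whole-number counts per gene symbol without normalization, and for the silencing experiment also TPM. The submitters' processing notes name STAR, DESeq2 and GRCh38/hg38. The counting tool, annotation and versions are not given in the sources used here. The overexpression table also held 12 columns of other cell lines, which were not used.

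Each experiment was fitted on its own 6 libraries with edgeR 4.0.16 in R 4.3.3 (TMM, default filter on low counts, robust quasi-likelihood test, Benjamini-Hochberg adjustment over all genes tested, threshold 0.05). TPM were tested with limma 3.58.1 on log2(TPM + 1) for genes of at least 1 TPM in 3 libraries. That fold change understates the difference of low genes. CPM between experiments were divided by the library total only.

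The members and gene lists were chosen with earlier results of these data known, and the lists came from general knowledge. Named genes were the 10 members, MUC1, genes of the eIF2 and paralog lists, from the 2 target lists the 3 genes of each direction that ranked first by p, and the 5 genes most like the members' mean profile. Of the 46 other ATF4 targets, 36 matched a promoter window by symbol. As alternatives, DESeq2 1.42.0 replaced edgeR; its size factors or the plain library totals replaced TMM; the filter was removed or raised to 10 counts in each library; calls also had to reach a log2 fold change of 1 in size; the replicate number was added as a block; and each library was left out in turn. TPM were used with a pseudocount of 1 or 0.1, with no filter and, added after the data were seen, rescaled without 4 small RNA genes. The scripts were tested on simulated data.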

Additional observations from a re-analysis of the deposited data

How the results depend on the processing

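With 3 libraries per group, and 2 silencing libraries that stood apart from their groups, calls in the silencing experiment depended on single libraries. Genes called with DOX numbered 4006, with a range of 2002 to 5243 when 1 library was left out, and 988 when a log2 fold change of at least 1 in size was also required. Other ATF4 targets called numbered 28, with a range of 10 to 38 when 1 library was left out, and 12 with that size limit. On TPM with a pseudocount of 1, of 0.1 and with no filter they numbered 11, 12 and 2. Of all genes, 5247, 5181 and 2894 were called in these settings. No member was called lower with DOX without the filter on low counts, where 25480 genes were tested and 7097 had an unadjusted p under 0.05 (3726 after adjustment). On the deposited TPM, 4991 genes were called higher and 256 lower, and signs turned, with pseudocounts of 1 and 0.1, for ATF5 (0.19 and 0.20), PDIA4 (0.23 and 0.23), EIF2S2 (0.0762 and 0.0773) and SEL1L (0.00394 and 0.00249), and with no filter the values were 0.19, 0.23, 0.0762 and 0.00394. The log2 fold change of MUC1 with DOX ranged from −1.83, without replicate 2 labelled DOX, to 0.62, without replicate 1, when 1 library was left out, and was −0.09 without vehicle replicate 2.

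With overexpression, genes called fell from 9312 to 1917 and other ATF4 targets from 39 to 22 with the same size limit, and leaving out 1 library gave 8486 to 9512 genes. Scaling by library size alone moved the median of all genes to −0.16 and that of the members to 0.86.

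Over all genes tested, same-numbered libraries did not deviate together (r between −0.08 and 0.09 with DOX and between −0.15 and −0.03 with overexpression). In both silencing groups, however, replicate 1 was the lowest for 9 of 10 members, beside 40.2% of all genes with vehicle and 30.9% with DOX. Whether the replicate numbers pair the libraries was not tested for the members. The replicate block gave 4226 genes called with DOX and 8965 with overexpression, and a log2 fold change of MUC1 of −0.62 with DOX. In it, 6 members and 35 other ATF4 targets were called lower with DOX, beside 2334 of all 14683 genes tested. For the members, which were chosen on these contrasts, that count is a description only. The SE with DOX fell from 0.28 to 0.16 for ATF4 and from 0.37 to 0.17 for CEBPB, and rose from 0.10 to 0.12 for ATF5.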
